A study of Mus musculus with 2 samples.

Results

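The kinesin and cytoplasmic dynein genes described here are the protein-coding mouse genes whose symbols name a kinesin heavy chain (Kif and a number), a kinesin light chain (Klc and a number) or a subunit of cytoplasmic dynein (Dync or Dynl). The rule found 59 genes among 22028 protein-coding genes and 55536 annotated genes in all, and it used only names, no measured value. By their known roles, 22 were placed among axonal transport motors, 11 among mitotic motors, 8 among dynein light chains, 9 among motors of cilia and centrioles and 8 among other kinesins. The last member, Kif1bp, is no motor but a protein that binds kinesin motor domains and keeps them off the microtubule.

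Total RNA was sequenced from hippocampus of adult male mice of the 5xFAD/CAST strain, aged 8 to 10 months. The 5xFAD mouse carries human transgenes with mutations of familial Alzheimer's disease, driven by the neuronal Thy1 promoter, and CAST is a wild-derived inbred strain. All samples belong to 1 group of 2 libraries, replicates 1 and 2, and both carry the same donor identifier, so the spread between them may be technical; no mice without the transgenes are analysed here, and no effect of the transgenes can be read from these values. The libraries held 26128897 and 28689423 expected counts, and the 59 genes took 0.919% and 0.914% of them. Neuronal markers were high in both libraries, with a median of 148.5 and 162.6 TPM over 8 genes; TPM is a transcript level scaled for transcript length and library depth. Markers of 2 neighbouring tissues differed between the libraries. All 10 choroid plexus markers were lower in replicate 2, with a summed TPM of 1471 in replicate 1 and 287 in replicate 2, and so were all 8 striatal markers, with 211 and 78.8. None of these markers was at 0 in either library. In bulk RNA, fewer cells of a type and less RNA per cell cannot be told apart.

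Kinesins and cytoplasmic dynein are ATP-driven motors that walk along microtubules. In axons most kinesins carry vesicles, mitochondria and cytoskeletal cargo outward from the cell body, and dynein, together with its activator dynactin, brings endosomes, autophagosomes and trophic signals back. Another set of kinesins is built for cell division, where they separate spindle poles, align chromosomes and organise the midzone and the final cut between daughter cells, and most neurons of the adult hippocampus no longer divide.

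The axonal and mitotic sets lay far apart in both libraries. The median over axonal transport motors was 55.5 TPM in the first replicate and 61.7 TPM in the second, and that over mitotic motors was 0.30 and 0.36 TPM. The log2 ratio of the medians was 7.53 and 7.42, or 7.48 ± 0.08 (SD, n = 2 libraries). As the sets were drawn, with earlier results of these data known, they did not overlap in the alignment-based table. The lowest axonal motor, Kif16b, was at 6.17 and 5.89 TPM and the highest mitotic motor, Kif22, at 2.72 and 4.21 TPM. The kinesin light chains Klc3 and Klc4 were placed among the other kinesins, and with Klc3, at 3.17 and 3.73 TPM, counted as axonal the sets would overlap in replicate 2. Kif2a, a depolymerase like the mitotic Kif2c, was placed there too. With Kif2a, at 48.0 and 43.9 TPM, counted as mitotic the sets would overlap in both libraries. As drawn, the sets overlapped in replicate 2 of the table made without alignment, with Kif22 at 6.42 TPM and Kif16b at 5.25 TPM. In replicate 1 of that table Kif22 was below Kif16b. Summed over the 11 genes, mitotic motors held 186 alignment-based counts in replicate 1, with an exact 95% Poisson interval of 160 to 215. In replicate 2 they held 225, with an interval of 197 to 256. Axonal motors held 214048 and 233310 counts. These intervals cover counting error only. All 22 axonal motors and 1 of the 11 mitotic motors reached at least 1 alignment-based TPM in both libraries, the level called detected below. Of all 59 members 45 did, 76.3%, against 60.4% of all protein-coding genes. The 10 non-motor genes of cell division, among them Top2a, Plk1 and Prc1, lay near the mitotic motors with a median of 0.57 ± 0.039 TPM (SD, n = 2), and 0 of 10 were detected. The size of the contrast depended on how low values were estimated, and it ran from 5.28 to 8.00 on the log2 scale over the settings tried.

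**Figure D1:**
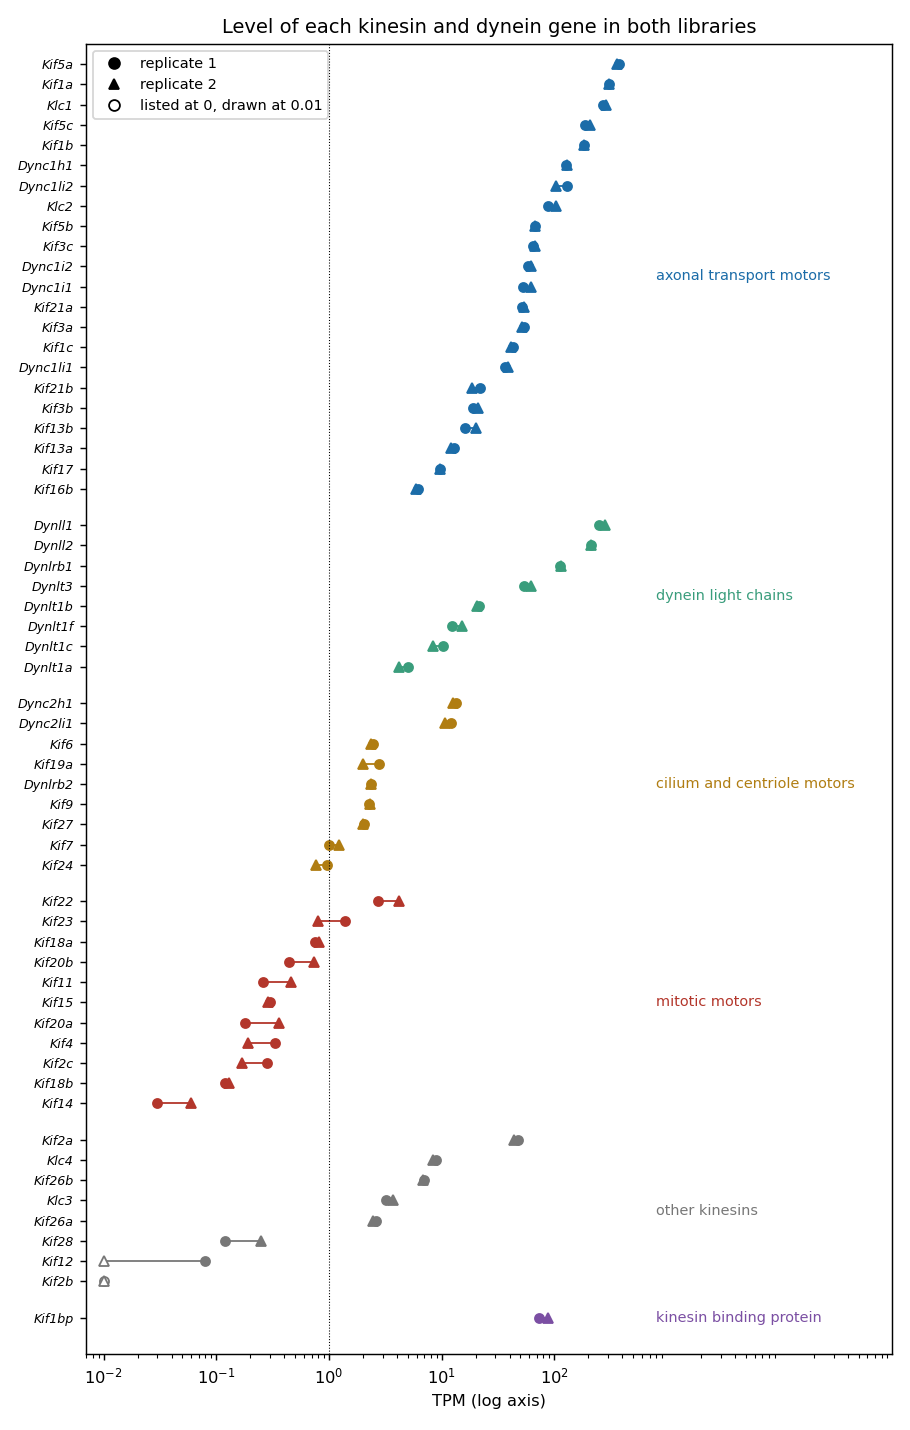
Level of each of the 59 genes in both libraries, in TPM on a log axis, grouped by role; circles are replicate 1, triangles replicate 2, open symbols values listed at 0 and the dotted line marks 1 TPM. The 22 axonal transport motors lie from 5.89 TPM upward, and all mitotic motors but Kif22 lie below 1 TPM in at least 1 library.

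The promoters of both sets also differed in a short element, which is why 5 of them are shown. Genes expressed around mitosis often carry a cell cycle genes homology region (CHR), an element near the start site to which cell cycle repressor and activator complexes are known to bind. The letters TTTGAA were searched on both strands in RefSeq promoters of build GRCm38.p6, each running from 250 bases before its listed start to 50 after it. They were found in 9 of the 10 mitotic motor promoters and in 1 of 19 promoters of axonal motors, a second promoter of Kif1a. These promoters covered 10 of the 11 mitotic and 16 of the 22 axonal motors. The mitotic Kif20a and, among axonal motors, Kif5a had no promoter to search. Of all 32851 promoters of the same length, 17.9% held these letters. Some windows lay wholly inside the annotated gene, so that their start is not the gene's outer end. Among them were the mitotic Kif14, Kif2c and Kif4, the axonal Kif17 and the second promoter of Kif1a. The matches of Kif14 and Kif2c stood at -228 and -103 bases from their listed starts. Within 30 bases of the start, a window chosen after the matches were seen, 7 of 10 mitotic and 0 of 19 axonal promoters held a match, against 3.14% of all promoters. No dynein light chain promoter of 6 held a match anywhere, and of 9 promoters of the non-motor cell division genes 7 did. The letters CCAAT, another element common in cell cycle promoters, stood in 6 of 10 mitotic and 4 of 19 axonal promoters and in 37.4% of all. Base composition also differed but did not follow the order of these counts. The median GC content was 60.2% in mitotic, 67.0% in axonal and 52.7% in all promoters, and its part in the match counts was not tested.

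In the following promoters, read 5′ to 3′ on the gene's strand, capitals mark the CHR letters or their reverse complement. Kif11 drives spindle poles apart, and its match began 19 bases before the start. Kif23 is a subunit of centralspindlin at the midzone, and Kif4 helps to condense chromosomes and limits midzone microtubules. Their matches began at base 3 and base 20 of the transcript. Kif18a, which damps chromosome movements at the metaphase plate, was the only mitotic motor searched that had no match. Kif5c, a neuronal kinesin-1 heavy chain, stands for the axonal motors with none.
Kif11, chr19:37376132-37376431, plus strand: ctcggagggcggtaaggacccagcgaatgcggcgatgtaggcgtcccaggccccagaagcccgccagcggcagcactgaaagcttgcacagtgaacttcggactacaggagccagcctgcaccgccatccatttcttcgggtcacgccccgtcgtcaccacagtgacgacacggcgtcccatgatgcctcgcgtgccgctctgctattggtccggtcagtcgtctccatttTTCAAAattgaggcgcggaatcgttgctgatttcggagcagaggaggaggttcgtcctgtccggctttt
Kif23, chr9:61946750-61947049, minus strand: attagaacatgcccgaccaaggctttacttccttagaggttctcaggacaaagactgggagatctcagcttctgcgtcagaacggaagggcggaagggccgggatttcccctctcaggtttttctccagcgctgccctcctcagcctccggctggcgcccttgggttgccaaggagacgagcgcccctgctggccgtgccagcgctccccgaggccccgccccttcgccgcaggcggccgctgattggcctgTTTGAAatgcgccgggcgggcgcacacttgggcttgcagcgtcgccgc
Kif4, chrX:100625815-100626114, plus strand: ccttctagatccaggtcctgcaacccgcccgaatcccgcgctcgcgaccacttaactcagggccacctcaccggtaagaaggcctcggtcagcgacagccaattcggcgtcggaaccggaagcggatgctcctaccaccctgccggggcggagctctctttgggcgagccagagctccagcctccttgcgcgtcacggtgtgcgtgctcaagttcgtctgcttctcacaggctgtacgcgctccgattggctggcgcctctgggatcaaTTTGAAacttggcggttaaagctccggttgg
Kif18a, chr2:109280488-109280787, plus strand: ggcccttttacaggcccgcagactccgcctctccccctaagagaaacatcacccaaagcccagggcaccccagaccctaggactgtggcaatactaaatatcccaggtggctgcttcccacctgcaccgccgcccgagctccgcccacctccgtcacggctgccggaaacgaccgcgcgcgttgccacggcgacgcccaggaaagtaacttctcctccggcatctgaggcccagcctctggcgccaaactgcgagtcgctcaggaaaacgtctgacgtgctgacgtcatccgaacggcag
Kif5c, chr2:49619036-49619335, plus strand: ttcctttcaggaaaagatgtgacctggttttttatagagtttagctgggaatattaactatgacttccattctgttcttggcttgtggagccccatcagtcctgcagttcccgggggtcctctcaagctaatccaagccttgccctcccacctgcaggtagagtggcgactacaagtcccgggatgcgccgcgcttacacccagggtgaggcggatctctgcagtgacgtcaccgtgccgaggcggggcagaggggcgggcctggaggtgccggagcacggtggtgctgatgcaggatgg
A match is a string of letters and not a measured binding site, and both the sequences and the annotation are those of the reference genome, not of the CAST parent.

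Among axonal motors, kinesin-1 was the most abundant family. Its heavy chain Kif5a (chromosome 10, 127225696 to 127263348, minus strand, mm10) was at 375 and 360 TPM in replicates 1 and 2. It ranked 102 among nuclear protein-coding genes and was the highest of the 59. In the alignment-free table Kif5a was at 330 and 335 TPM and Kif1a at 327 and 354 TPM, so that Kif1a was the higher in replicate 2. Kif5c, like Kif5a found mainly in neurons, was at 188 and 206 TPM, and at 286 and 290 TPM in the alignment-free table, which placed 51.1% and 57.1% of it on the coding transcript Kif5c-201. Kif5b, the heavy chain found in most cell types, was at 67.5 and 67.0 TPM. Kif5a thus held 61.2% and 59.3% of the kinesin-1 heavy chain level on coding transcripts, Kif5c 28.7% and 30.9% and Kif5b 10.0% and 9.81%, an order that was the same in both libraries and both quantifications. The light chains, which link the heavy chains to cargo, were led by Klc1 at 269 and 284 TPM. Klc2 followed at 88.3 and 103 TPM, and the other two light chains were far lower, Klc4 at 8.88 and 8.42 TPM and Klc3 at 3.17 and 3.73 TPM.

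Kinesin-3 came next. Kif1a, the motor of synaptic vesicle precursors, was at 305 and 304 TPM, second among all 59 genes. Kif1b was at 183 and 182 TPM, and Kif1c, a vesicle motor also found outside the nervous system, at 42.8 and 41.4 TPM. The kinesin-3 motors of endosomes were lower: Kif13b was at 16.0 and 19.99 TPM, Kif13a at 12.9 and 12.1 TPM and Kif16b at 6.17 and 5.89 TPM. Within each library these 6 genes kept one order, and each step between neighbours was larger than the difference between the libraries except that between Kif13b and Kif13a.

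Kinesin-2 motors work as a dimer of Kif3a with Kif3b or Kif3c. Kif3c, the partner enriched in neurons, was at 64.1 and 66.7 TPM, Kif3a at 53.3 and 51.2 TPM, and Kif3b, which also builds cilia, at 19.0 and 20.8 TPM. Exons of Kif3c overlap a gene on the opposite strand, 1110002L01Rik, over 35.3% of their bases; that gene held 125 and 122 counts, against 5911 and 6722 for Kif3c. The libraries were stranded, but whether the counting used strand is not stated, so reads of such pairs may be mixed. Kif17, a dendritic kinesin-2 known for carrying an NMDA receptor subunit, was much lower at 9.69 and 9.61 TPM. Kif17 was placed among the axonal transport motors all the same, so that set is broader than its name. Of the kinesin-4 motors, Kif21a was at 51.3 and 53.9 TPM and Kif21b at 22.0 and 18.7 TPM.

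Cytoplasmic dynein-1 carries cargo toward the cell body. Its heavy chain Dync1h1, which holds the motor domain, was at 127 and 128 TPM. The light intermediate chains, which bind cargo adaptors, were at 129 and 103 TPM for Dync1li2 and at 36.2 and 39.1 TPM for Dync1li1. The intermediate chains, which bind dynactin, were at 52.5 and 61.7 TPM for Dync1i1, the neuronal form, and at 57.8 and 61.7 TPM for Dync1i2, the form found in most tissues. Of the summed intermediate chain level on coding transcripts Dync1i1 held 47.7% in replicate 1 and 50.1% in replicate 2, so that by this measure neither form was consistently the higher. In the alignment-free table Dync1i2 was the higher in both libraries. There it held 52.2% and 50.6% of the coding level, with gene levels of 60.6 and 63.9 TPM against 47.1 and 58.1 TPM for Dync1i1.

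The dynein light chains spanned a wide range. The LC8 chains Dynll1 and Dynll2, which bind many proteins besides dynein, were at 248 and 281 TPM and at 213 and 210 TPM. The roadblock chain Dynlrb1 was at 111 and 115 TPM and the Tctex chain Dynlt3 at 54.1 and 61.5 TPM. The 4 near-identical copies of the Tctex chain Dynlt1 followed, with Dynlt1b at 21.5 and 20.4 TPM, Dynlt1f at 12.4 and 15.3 TPM, Dynlt1c at 10.2 and 8.44 TPM and Dynlt1a at 4.99 and 4.21 TPM. These copies lie on chromosome 17 between 6306340 and 6655900 (mm10), and reads cannot be divided among them with certainty. Their coding sequences are 339 bases long. Those of Dynlt1a, Dynlt1c and Dynlt1f are identical, and that of Dynlt1b differs from each at 1 base, A21C from Dynlt1b to Dynlt1f, counted from 1 at the first coding base. The first 51 coding bases of the 2 versions show how little separates them, with the differing base in capitals.
Dynlt1b-201, chromosome 17, plus strand: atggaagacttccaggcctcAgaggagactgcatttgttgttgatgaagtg
Dynlt1f-201, chromosome 17, minus strand: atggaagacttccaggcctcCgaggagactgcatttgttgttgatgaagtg
Over their whole length of 771 bases these 2 transcripts differ at 7 bases. Together the 4 copies held 1215 and 1232 expected counts, a sum that does not depend on how reads are divided among them. It may still hold reads of Tmem181a, which overlaps Dynlt1a on the opposite strand. Coding transcripts held all counts of Dynlt1b but 23.7% and 37.2% of those of Dynlt1a. For Dynlt1c they held 7.51% and 8.37% and for Dynlt1f 29.4% and 38.3%, the rest being on retained-intron transcripts. The summed TPM of the 4 copies, 49.1 and 48.3, does depend on how reads are divided, because the transcripts differ in length. By contrast, the coding sequences of Dynll1 and Dynll2 differ at 50 of 267 bases, an identity of 81.3%, and those of Dynlrb1 and Dynlrb2 have an identity of 71.9% over 288 bases.

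Subunit levels of dynein-1 and kinesin-1 were then set side by side on coding transcripts, a comparison added after the values had been seen. The dynein-1 heavy chain was at 111.1 ± 3.07 TPM, the intermediate chains together at 108.7 ± 7.74 TPM and the light intermediate chains together at 104.3 ± 5.09 TPM (SD, n = 2). Their ratios to the heavy chain were 0.978 ± 0.043 and 0.938 ± 0.020. The ratio was 2.88 ± 0.030 for the LC8 chains, 1.02 ± 0.016 for the roadblock chains and 0.742 ± 0.018 for the Tctex chains. The kinesin-1 heavy chains summed to 610 TPM and the light chains to 335 TPM, a ratio of 1.82 ± 0.093. RNA levels say nothing of the stoichiometry of the proteins, and the ratios depended on which transcripts were counted. With all transcripts of a gene the light intermediate chains stood at 1.20 times the heavy chain and the LC8 chains at 3.72 times. The roadblock chains fell to 0.330 times it in the alignment-free quantification, where the coding transcripts of Dynlrb1 held 19.2% and 22.3% of its TPM. Of the rest, 45.9% and 42.4% of Dynlrb1 stood on the non-coding transcript Dynlrb1-203, which was listed at 0 in the alignment-based table.

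**Figure D2:**
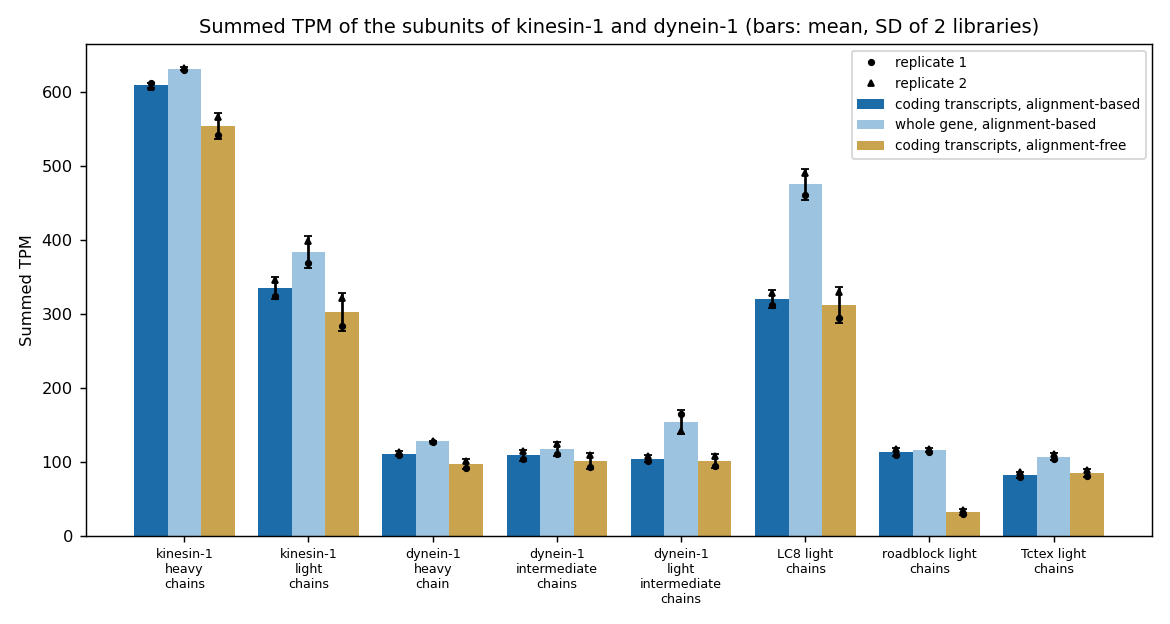
Summed TPM of the subunits of kinesin-1 and dynein-1 by 3 ways of counting; bars are the mean of 2 libraries with the SD, circles replicate 1 and triangles replicate 2. On coding transcripts the dynein-1 heavy, intermediate and light intermediate chains stood at 111.1, 108.7 and 104.3 TPM, and the roadblock chains are the ones that differ most between the quantifications.

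Of the mitotic motors, only Kif22, a chromokinesin that pushes chromosome arms toward the spindle equator, was detected, and its leading transcript was non-coding. Kif22 rested on 21 and 25 counts. Its retained-intron transcript Kif22-205, 295 bases long, held 45.6% and 74.8% of the gene's TPM. Its retained-intron transcripts together held 54.4% and 74.8%, and its coding transcripts came to 1.24 and 1.06 TPM. In the alignment-based table Kif23 was at 1.38 and 0.79 TPM, reaching 1 TPM in replicate 1 alone. Its coding transcripts held 18.2% and 15.0% of that level. Kif18a was at 0.75 and 0.81 TPM on 38 and 50 counts, the largest of the set.

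The other mitotic motors were lower. Kif20b, which acts in cytokinesis, was at 0.44 and 0.74 TPM, Kif11 at 0.26 and 0.46 TPM and Kif15, which works beside Kif11 on the spindle, at 0.30 and 0.29 TPM. Kif20a, a midzone motor, was at 0.18 and 0.36 TPM, with a gene on the opposite strand, Cdc23, over 29.3% of its exon bases. Cdc23 held 976 and 1219 counts, against 10 and 21 for Kif20a. Kif4 was at 0.33 and 0.19 TPM and the depolymerase Kif2c at 0.28 and 0.17 TPM. Pdzd11, on the opposite strand over 15.1% of the exon bases of Kif4, held 356 and 360 counts, against 29 and 18 for Kif4. Kif18b was at 0.12 and 0.13 TPM and Kif14, a motor of cytokinesis, at 0.03 and 0.06 TPM on 3 and 9 counts. Of the 5 mitotic motors with enough counts to be compared between the libraries, none passed the test described below, and the lowest adjusted p of that exact binomial test was 0.121, for Kif11 with 21 and 41 counts.

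The medians of the sets also differed in transcript class, while single genes overlapped. Per gene, the median share of TPM on coding transcripts was 93.5% and 91.4% for axonal motors, 92.4 ± 1.46% (SD, n = 2), and 70.5% and 74.1% for mitotic motors, 72.3 ± 2.56%. The mitotic motors Kif20a, Kif4 and Kif18b were at 100% in both libraries, and the axonal motors Kif21b and Dync1li2 were as low as 39.8% and 51.4% in replicate 1. Over all protein-coding genes it was 91.2%. Of the summed TPM, coding transcripts held 91.0 ± 0.921% on axonal motors and 47.2 ± 5.75% on mitotic motors. Counted in reads in place of TPM the medians were 98.3% and 83.1%, TPM being reads divided by transcript length. A mitotic gene with about 20 counts spreads them over several transcripts, and shares of single genes at that depth are imprecise.

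**Figure D3:**
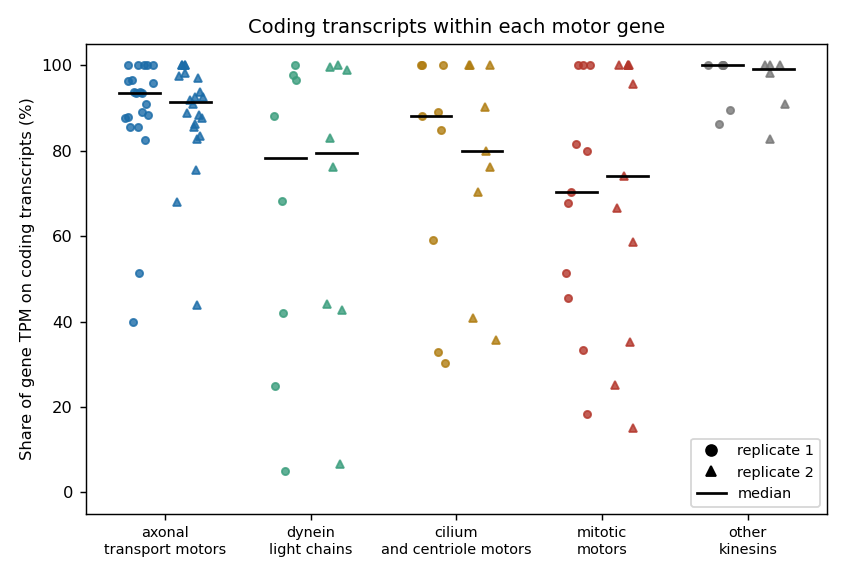
Share of each gene's TPM on protein-coding transcripts, in percent, by role; each circle is a gene in replicate 1, each triangle a gene in replicate 2 and the black bars are medians. The axonal medians are 93.5% and 91.4% and the mitotic medians 70.5% and 74.1%, and the low points among light chains are Dynlt1 copies and Dynll1.

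For the main axonal motors, 1 or 2 coding transcripts held most of a gene's TPM. Kif5a-201 held 98.6% and 98.9% of its gene's TPM, Kif5c-201 93.5% and 90.3%, Kif5b-201 85.2% and 82.1%, and Dync1h1-201 85.6% and 88.4%. Kif1a-204 held 67.3% and 67.9%. For Kif1b, which makes a short alpha form known for carrying mitochondria and a long beta form known for carrying synaptic vesicle precursors, Kif1b-203 with 5448 coding bases held 77.4% and 81.8% of TPM. The short Kif1b-201, with 3450 coding bases, held 2.58% and 2.77%. Klc1 was shared between Klc1-202 with 49.2% and 48.1% and Klc1-203 with 20.4% and 22.6%.

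Other genes were less settled. Dync1i1-204 held 60.1% and 61.9% of its gene in the alignment-based table but 44.2% and 41.2% in the alignment-free one. Dync1i2-208 led its gene with 38.5% and 50.3%. Kif3c-205 held 51.4% and 50.2%, Kif3a-203 47.7% and 53.4% and Kif21a-204 60.4% and 60.9%. In the alignment-free table Dync1i2-208 led in replicate 1 alone, and Kif21a-204 held 18.9% and 21.2%, behind Kif21a-205 with 39.6% and 33.0% and Kif21a-202 with 35.01% and 35.1%. Klc2 was led by Klc2-204 in replicate 1 with 41.9% and by Klc2-201 in replicate 2 with 41.7%. Dync1li2-201 led with 39.8% and 52.1%, while a 144-base non-coding transcript of the same gene, Dync1li2-208, held 39.0% and 23.2% of TPM on 0.84% and 0.38% of its counts. That transcript moved the gene's TPM between 129 and 103 although its counts, 4768 and 5281, differed by a log2 ratio of 0.02 after scaling.

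The light chains gave the same mixed picture. Dynll2-201 held 79.9% and 76.3% of its gene, Dynlrb1-202 95.6% and 97.6% and Dynlt3-201 88.2% and 82.9% in the alignment-based table. In the alignment-free table Dynlrb1-202 held 14.5% and 12.9% and no longer led its gene. Dynll1 was led by the non-coding Dynll1-203 with 44.8% and 45.0%, so that Dynll1 was above Dynll2 over whole genes but held 33.3% and 36.5% of the LC8 level on coding transcripts. The kinesin binding protein Kif1bp was led by Kif1bp-201 with 85.0% and 83.5%. Of 43 members with several transcripts and at least 1 TPM, 30 had the same leading transcript in both quantifications in both libraries, 69.8%, against 71.7% of 11994 protein-coding genes. Among axonal motors it was 16 of 21.

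Motors of cilia and centrioles were low but present, 8 of 9 detected, with a median of 2.38 and 2.31 TPM. Dynein-2 moves cargo back down the cilium. Its heavy chain Dync2h1 was at 13.5 and 12.7 TPM and its light intermediate chain Dync2li1 at 11.99 and 10.8 TPM, both above all other genes of the set. Kif19a, which limits the length of motile cilia, was at 2.77 and 1.99 TPM, and Kif6 and Kif9, both of motile cilia, were at 2.44 and 2.37 TPM and at 2.27 and 2.31 TPM. Kif27 was at 2.05 and 2.00 TPM, its paralog Kif7, which acts in hedgehog signalling, at 1.00 and 1.22 TPM, and the light chain Dynlrb2 at 2.38 and 2.36 TPM. Kif24, which trims centriolar microtubules, was at 0.96 and 0.76 TPM. Ependymal cells, which carry motile cilia, gave a summed TPM of 31.4 and 30.7 over their 10 markers, with 7 of 10 detected, none at 0 and Foxj1 at 3.98 and 3.27 TPM. Their part in the level of these motors was not tested.

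Among the other kinesins Kif2a, a microtubule depolymerase that trims axon branches, stood alone at 48.0 and 43.9 TPM, and at 29.0 and 34.01 TPM in the alignment-free table. A 288-base transcript, Kif2a-205, held 37.4% and 21.9% of the alignment-based level and was listed at 0 in the other table. Kif26b, an atypical kinesin, was at 7.01 and 6.84 TPM and its paralog Kif26a at 2.63 and 2.46 TPM. Opposite-strand genes cover 19.2% of the exon bases of Kif2a (Dimt1) and 28.1% of those of Klc3 (Ercc2). The remaining 3 kinesins lay below 1 TPM in both libraries. One of them, Kif2b, had 0 counts in both, which allows up to 0.115 CPM in replicate 1 and 0.105 CPM in replicate 2 (CPM, counts scaled to depth; the limit is that of 3 counts in the library). Kif1bp was at 73.3 and 87.4 TPM.

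Between the libraries the motors differed little in size. Expected counts scaled by trimmed mean of M values were compared gene by gene in an exact binomial test conditional on their sum (two-sided), and p-values were adjusted over 16971 genes by the Benjamini-Hochberg method. The test weighs only the counting error of these 2 libraries and compares no conditions. Of 49 members with a mean count of at least 20, 13 differed at an adjusted p under 0.05, 26.5%, against 18.5% of all genes tested. None was more than 2-fold apart, against 2.00% of all genes, and the median absolute log2 ratio was 0.097 for members and 0.12 for all genes. In replicate 2, 6 members were higher and 7 lower, where 9.36% and 9.11% of all genes were. Scaled by the ERCC spike-ins in place of the genes, the split became 30 higher and 0 lower, where 59.1% of all genes tested differed. The median log2 ratio was then 0.29 for members and 0.27 for all genes, so these directions are relative to all genes.

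Kif1bp was higher in replicate 2 with 2940 and 3773 counts, a log2 ratio of 0.23 and an adjusted p of 1.99e-09 in the exact binomial test. Dync1i1, with 2280 and 2819 counts, and Klc2, with 3944 and 4860 counts, had log2 ratios of 0.18 and 0.17. Dynll1, Kif2a and Kif5c were higher by 0.16, 0.13 and 0.05. For Kif2a this holds for counts, 1978 and 2366, and for alignment-free TPM, 29.0 and 34.01, whereas its alignment-based TPM was lower in replicate 2. Kif5a was lower with 41921 and 43042 counts, a log2 ratio of -0.09 and an adjusted p of 7.52e-18 in the same exact test. The other kinesins lower in replicate 2 were Kif5b at -0.08, Kif1c at -0.11, Kif21b at -0.17 and Kif27 at -0.46, and the lower dynein genes were Dync2h1 at -0.20 and Dynlt1a at -0.43. For Dynlt1a the split among the copies is uncertain, as above. Tmem181a, on the opposite strand over 13.6% of its exon bases, held 1557 and 2029 counts, against 307 and 249 for Dynlt1a. Kif27 had 177 and 140 counts but nearly equal TPM, and retained-intron transcripts held 0% and 29.6% of its TPM. The choroid plexus and striatal markers moved further, with median log2 ratios of -2.71 and -1.77, while neuronal markers had a median of 0.13, 7 called higher and 1 lower. Whether the tissue mixture had a part in the differences of single motors was not tested.

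**Figure D4:**
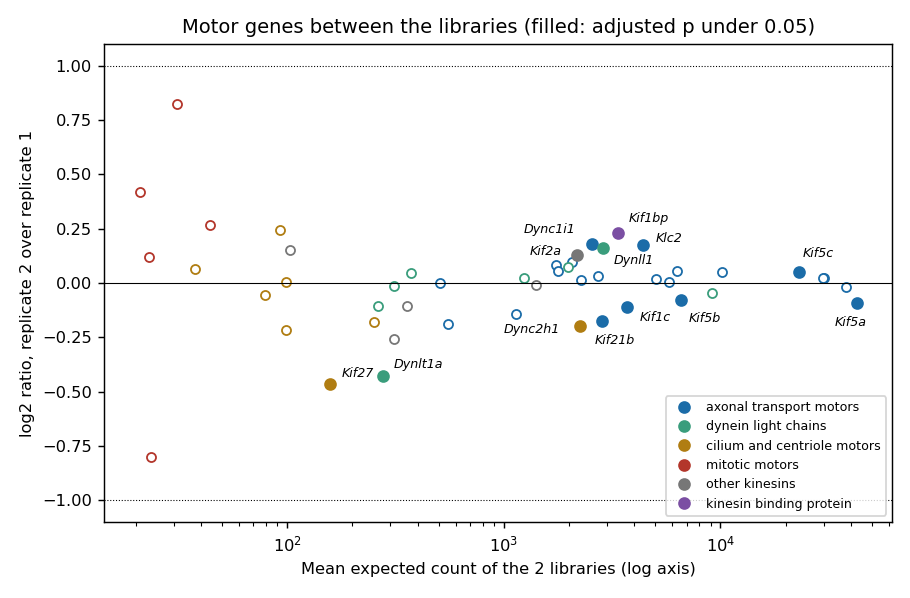
Log2 ratio of replicate 2 over replicate 1 against the mean expected count (log axis) for the 49 members compared; filled points have an adjusted p under 0.05 in the exact binomial test and dotted lines mark a 2-fold difference. All 49 lie within the dotted lines, and the 13 filled points run from -0.46 for Kif27 to 0.23 for Kif1bp.

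The partners of the motors were detected throughout. All 12 dynactin genes were detected, with a median of 70.0 ± 2.76 TPM (SD, n = 2). Dctn1, which binds microtubules and dynein, was at 165 and 172 TPM, and the capping proteins Capzb and Capza2 were at 164 and 170 TPM and at 118 and 127 TPM. Between the libraries 3 of the 12 were higher in replicate 2 and 0 lower, where 9.36% and 9.11% of all genes tested were. All 21 adaptors and regulators of motors were detected as well, with a median of 49.2 ± 1.85 TPM. Clstn1, a kinesin light chain cargo, was at 317 and 332 TPM, Mapk8ip3, a scaffold for kinesin and dynein, at 169 and 176 TPM, and Kidins220, a membrane cargo of kinesin-1, at 146 and 153 TPM, and 5 of the 21 were higher and 2 lower in replicate 2, beside the same 9.36% and 9.11% of all genes.

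The alignment-free counts of most motors exceeded the alignment-based ones by a similar factor. For members with at least 100 counts the alignment-free count was 1.06 to 1.30 times the alignment-based one in replicate 1 and 1.06 to 1.32 times in replicate 2, and the median over protein-coding genes was 1.15 and 1.14. Some low members departed from this and others did not, with Kif18b at 1.00 and 1.13 times and Kif22 at 1.05 and 1.12 times. Kif24 had 35 and 40 alignment-based counts but 281 and 279 alignment-free counts, 92.7% and 93.4% of its alignment-free TPM on the non-coding Kif24-204. Kif14 and Kif2c also had far more alignment-free counts, 26.6 and 7.87 times and 4.96 and 5.78 times as many. No exon of Kif24, Kif14 or Kif2c overlaps a gene on the opposite strand, and which of the 2 counts is nearer the truth was not tested.

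**Figure D5:**
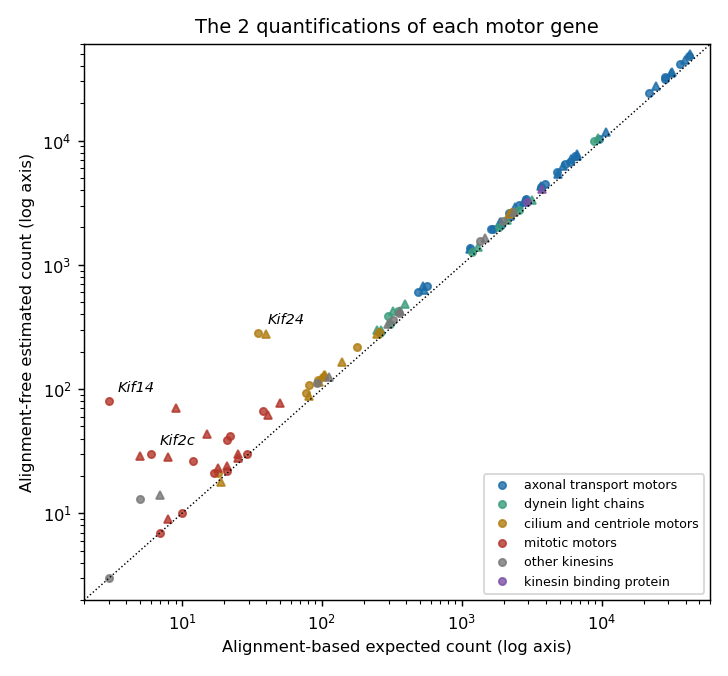
Alignment-free against alignment-based counts of each member in both libraries, both axes log; circles are replicate 1, triangles replicate 2 and the dotted line marks equal counts. Members above 100 counts lie 1.06 to 1.32 times as high on the alignment-free axis, while Kif24, Kif14 and Kif2c lie far above the line.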

How the data were processed

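Total RNA (300 ng per library) went into rRNA-depleted, stranded libraries with ERCC spike-ins, per the labels. The tables are on mm10 with GENCODE M21, per the deposited notes; which aligner and quantifiers made them is not given in the sources used. The deposited expected counts are the authors' estimated reads of each gene or transcript, which may be fractional; TPM and FPKM were deposited scaled for length and depth by the authors. The deposited percent column gives each transcript's share of its gene's TPM, per the file headers. A second deposited transcript table, of estimated counts and TPM made without alignment, was summed per gene here. Reads from CAST alleles that differ from mm10 can be lost, which was not tested.

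Members were found by symbol, and 53 of the 59 had whole expected counts (within 0.005) in both libraries. Roles and lists were chosen with earlier results of these data known. Named were all members of the axonal, mitotic, light chain and cilium lists, other members from 1 TPM in either library, the leading transcript of members from a mean of 50 TPM, transcripts of at least 20% of TPM in both libraries for Kif1b, Klc1, Dync1i1, Dync1i2 and Kif1a, and the 3 highest genes of partner lists. Other transcripts named here were chosen after their values were seen. Expected counts were rounded and scaled with edgeR (4.0.16, R 4.3.3), log2 ratios used a prior count of 0.5, and the two-sided exact binomial test was run in scipy (1.17.1). DESeq2 (1.42.0) size factors, spike-in totals, other units, filters and quantifications were alternatives. Promoters came from RefSeq and matched 45 of the 59 members. pandas (2.3.3), numpy (2.4.6) and matplotlib (3.10.9) in Python (3.11.15) did the rest.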

Additional observations from a re-analysis of the deposited data

How the results depend on the processing

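The log2 ratio of axonal over mitotic motors was 7.48 as reported and kept its direction under every setting run. It was 5.87 with posterior mean TPM, 6.55 with alignment-free TPM, 5.28 and 6.83 as a difference of mean log2(TPM + 1) and mean log2(TPM + 0.1), 7.35 over members with a mean of at least 0.1 TPM, and 8.00 on coding transcripts alone, an alternative chosen after seeing the data. With single libraries it was 7.42 to 7.53. The number of members that differed between the libraries was 13 as reported, beside 18.5% of all genes tested. It was 30 with spike-in scaling, beside 59.1% of all genes, and the median log2 ratio there was 0.29. It was 16 with DESeq2 size factors and 17 with alignment-free counts, beside 19.6% and 18.4% of all genes. The median coding share of axonal motors was 86.7% without alignment and 98.3% of counts, and that of mitotic motors 59.8% without alignment, 83.1% of counts and 35.4% when only members from 1 TPM, here Kif22 alone, were kept. Shares of counts were added after seeing the data. With single libraries the ranges were 91.4% to 93.5% and 70.5% to 74.1%, members detected were 45 to 46 and members with the same leading transcript 32 to 34. In both libraries, 48 members reached 1 TPM without alignment, and 35 reached 5 TPM with it. No paired analysis was possible because there is 1 group. Mitotic motors rest on 3 to 50 counts a gene, which limits every level, share and transcript given for them.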

Other observations

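A few kinesins fall outside the naming rule because their symbols begin with Kifc or Cenp. Kifc2, a minus-end-directed kinesin of neurons, was at 134 and 132 TPM, above Dync1h1 in both libraries. Kifc3, a minus-end-directed kinesin of epithelial junctions, was at 30.6 and 35.7 TPM. Kifc1, the mitotic member of that family, was at 0.70 and 1.06 TPM and Cenpe, the kinetochore kinesin, at 0.35 and 0.48 TPM, within the range of the mitotic motors above.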
